A study of Xenopus laevis with 8 samples.

Results

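The SR splicing factors, the TRA2 proteins and the kinases and partner proteins that act on them were examined in brains of Xenopus laevis tadpoles edited in neurod2, the gene of a transcription factor of neuronal differentiation. Members were the rows of the count table with a symbol that begins with srsf and a digit, and the rows for tra2a, tra2b, clk1, clk2, clk3, clk4, srpk1, srpk2, srpk3, dyrk1a, srrm1, srrm2, acin1, son, pnn and rnps1. This gave 44 of 41881 genes, from 25 gene names. All 44 had enough counts to be tested, and 19 names had both an L and an S row. X. laevis is allotetraploid, and L and S mark the homeologues that come from its ancestral subgenomes. No row matched clk4 or srpk2, which were not analysed here.

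The CRISPants were F0 tadpoles grown in 0.1 x MMR from fertilised eggs injected with Cas9 and 1 guide RNA against both homeologues of neurod2, and their brains were mosaics in which edited cells lay among unedited ones. Controls were siblings that had received Cas9 without a guide, which the labels call wildtype, and all animals came from one sibship. Each of the 8 libraries, 4 per group, was made from the pooled whole brains of 4 tadpoles at stage NF47. Replicates are pools of siblings, so p-values set the difference between the groups against the spread between such pools. Variation between sibships is not covered. Since controls had no guide, loss of neurod2 and injection of a guide cannot be told apart. Levels are given as CPM, the count of a gene scaled to a common library size, after TMM normalisation for library composition. Values of single pools are listed in the order of control pools 1, 2, 4 and 5 and CRISPant pools 3, 4, 7 and 9, the numbers in the labels. A gene rose or fell where its Benjamini-Hochberg adjusted p, over all genes tested, was under 0.05 in edgeR's quasi-likelihood test.

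SR proteins bind exons through RNA recognition motifs and carry a tail rich in arginine and serine, the RS domain, with which they recruit the spliceosome to nearby splice sites. SRPK kinases phosphorylate the RS domain in the cytoplasm, which lets the proteins enter the nucleus, and CLK kinases phosphorylate it further in the nucleus and release the proteins from nuclear speckles. In mammals many SR genes also control their own output through poison exons, whose inclusion sends the transcript to nonsense-mediated decay. Counts per gene add up all transcripts of a gene, with or without such exons.

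Library totals ran from 20985937 to 25937707 counts in control pools and from 18945762 to 25509904 in CRISPant pools. A single member had between 157 and 19563 counts in a pool. neurod2.L had a log2 fold change of -0.47 (edgeR adjusted p = 0.0075) and neurod2.S one of -0.34, which did not pass (adjusted p = 0.11) but did so without CRISPant pool 4 (adjusted p = 0.011) and without the robust option of edgeR (adjusted p = 0.025). Its log2 fold change was -0.22 without CRISPant pool 9 (adjusted p = 0.082). With both copies summed, neurod2 had a log2 fold change of -0.40 and did not pass (edgeR adjusted p = 0.061). Markers of neurons were abundant, with a summed level of 3013 to 3158 CPM in control pools and 2884 to 3258 CPM in CRISPant pools. Markers of skeletal muscle summed to at most 7.51 CPM and those of retina to at most 6.88 CPM in any pool. Markers of cartilage and fibroblasts summed to 318 to 391 CPM in control pools and 355 to 407 CPM in CRISPant pools. For red blood cells the sums were 54.0 to 81.8 CPM and 42.2 to 118 CPM. For endothelium they were 52.3 to 55.9 CPM and 42.5 to 56.4 CPM. For the 4 listed skin markers the count table held only 2 rows, and 0 of these had enough counts to be tested.

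Among the 44 members there were 22 that rose, 5 that fell and 17 that missed the threshold, so 61.4% passed against 42.4% of the 25171 genes tested. Over all genes 21.7% rose and 20.8% fell. The median log2 fold change was 0.17 over the members and -0.0022 over all genes. Changes were mostly small, since 6 members rose and 2 fell by more than 1.5-fold (7.13% and 5.22% of all genes, together 12.3%), and srsf5a.L alone exceeded 2-fold (3.58% of all genes). The groups of pools did not overlap for 20 members that rose and 5 that fell, against 37.8% of all genes. Without regard to sign, the median log2 fold change was 0.21 among members and 0.23 among all genes. Members were measured with less scatter than most genes, with a median coefficient of variation of 5.03% between control pools and 5.14% between CRISPant pools, against 8.63% and 9.24% over all genes.

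**Figure D1:**
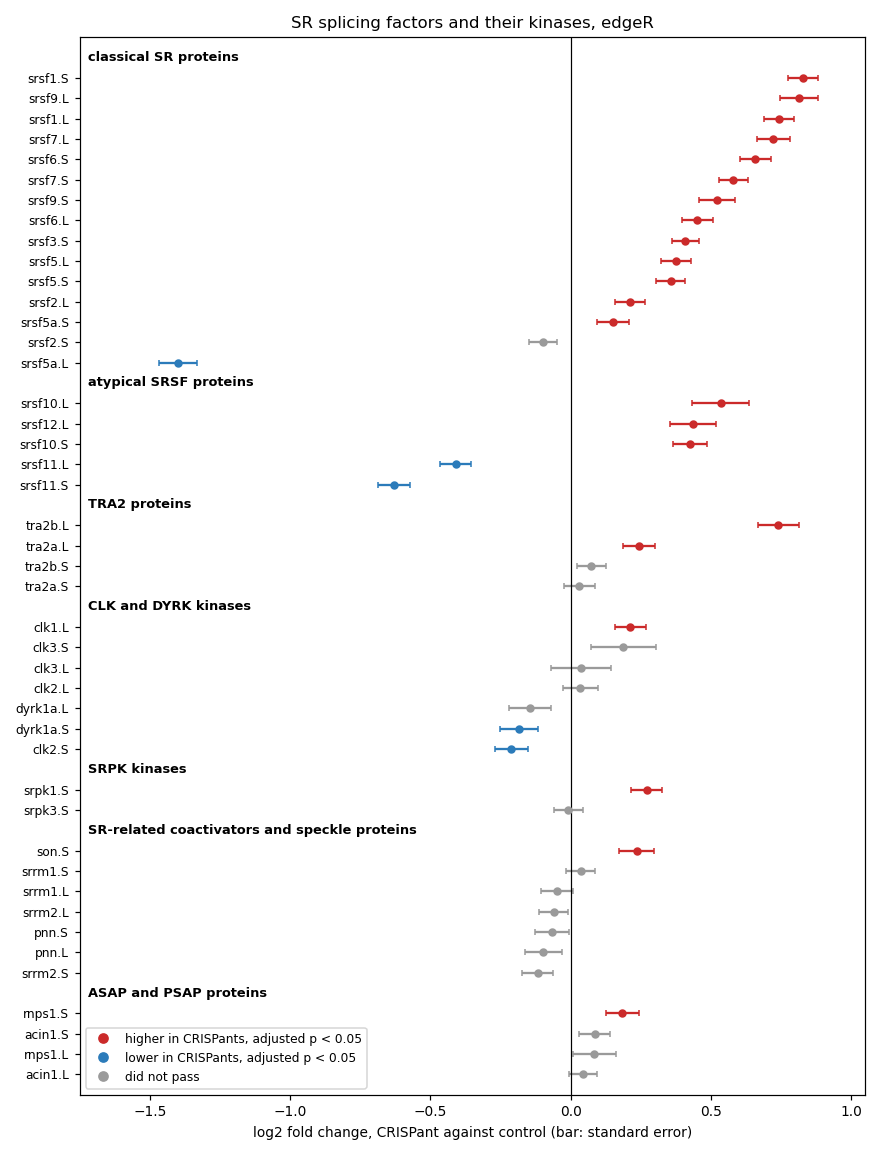
Log2 fold change of each of the 44 members, CRISPant against control (x axis), with its standard error, grouped by role. Red points rose, blue points fell and grey points did not pass the edgeR test, and srsf5a.L stands apart at -1.40.

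Most members that rose were genes for the SR proteins themselves. Of 20 SRSF genes, 16 rose, 3 fell and 1 did not pass, and the median log2 fold change was 0.43. Of the other 24 members, 6 rose, 2 fell and 16 missed the threshold, and their median was 0.04. The shares of all genes to set beside the counts in this paragraph are 21.7% higher and 20.8% lower. For 15 SRSF genes the lowest CRISPant pool was above the highest control pool, and for 3 the highest CRISPant pool was below the lowest control pool (19.4% and 18.5% of all genes). Markers of cycling cells were also higher in the CRISPants. All 11 tested rows of that list (13 rows in the table) rose, with a median log2 fold change of 1.13, and their summed level was 394 to 493 CPM in control pools and 880 to 1138 CPM in CRISPant pools. Markers of neural progenitors and radial glia summed to 2331 to 2706 CPM and 2825 to 3207 CPM, with 5 of 9 rows higher and 4 that did not pass. In bulk brain RNA, more cells of a type and more RNA per cell cannot be told apart, and the part of these cells in the result was not tested.

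Among the classical SR proteins, 13 of 15 genes rose, srsf5a.L fell and srsf2.S did not pass. Of all genes tested, 21.7% rose and 20.8% fell. srsf1, one of the first SR proteins described, which shuttles between nucleus and cytoplasm in mammals, had the smallest p of the members that rose. srsf1.S, on chromosome 2S (65904899 to 65919978, assembly v10.1), was at 68.4, 69.7, 72.1 and 69.2 CPM in the control pools and at 116, 122, 133 and 126 CPM in the CRISPant pools. The groups lay far apart. Its mean rose from 69.8 ± 1.58 to 124 ± 7.04 CPM (SD over 4 pools). The log2 fold change was 0.83 ± 0.05 (SE, edgeR adjusted p = 3.7e-10). srsf1.L, on chromosome 2L from 63230445 to 63235840, was at 103, 98.8, 96.6 and 99.1 CPM in control pools and at 173, 161, 157 and 175 CPM in CRISPant pools. It rose by nearly as much, with a log2 fold change of 0.74 ± 0.05 (SE, edgeR adjusted p = 1.1e-09), and srsf1.S ranked 30 by p among all genes with a positive change.

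srsf9, a short SR protein with a brief RS tail, rose in both homeologues. srsf9.L was at 31.6, 30.1, 30.4 and 31.6 CPM in control pools and at 51.5, 49.4, 57.5 and 59.2 CPM in CRISPant pools, a log2 fold change of 0.81 (edgeR adjusted p = 7.6e-09). The annotated span of srsf9.L overlaps that of gatc.L, which was far lower in counts (2.28 CPM in controls, 3.62 CPM in CRISPants) and also rose. srsf9.S was at 29.1, 26.4, 29.2 and 28.4 CPM in control pools and at 39.2, 39.2, 42.8 and 40.9 CPM in CRISPant pools. Its log2 fold change was 0.52 (edgeR adjusted p = 1.8e-06).

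srsf7, an SR protein with a zinc knuckle that also helps mRNA leave the nucleus in mammals, rose in both homeologues as well. srsf7.L was at 43.8, 44.7, 42.6 and 41.7 CPM in control pools and at 77.7, 71.0, 67.7 and 68.9 CPM in CRISPant pools (log2 fold change 0.72, edgeR adjusted p = 7.4e-09). For srsf7.S the control pools held 134, 132, 147 and 139 CPM and the CRISPant pools 203, 203, 206 and 213 CPM (log2 fold change 0.58, adjusted p = 2.3e-08). The groups were clearly apart for both copies.

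srsf6 encodes a larger SR protein with a pair of RNA recognition motifs. srsf6.S was at 81.2, 78.8, 88.5 and 88.9 CPM in control pools and at 133, 129, 131 and 140.1 CPM in CRISPant pools, a log2 fold change of 0.66 (edgeR adjusted p = 1.1e-08). Control pools of srsf6.L held 113, 119, 121 and 129 CPM and CRISPant pools 158, 161, 162 and 178 CPM, with a log2 fold change of 0.45 (adjusted p = 1.7e-06). CRISPant pool 9 was the highest pool for both homeologues. srsf3.S, for the smallest of the SR proteins, rose from 232, 218, 219 and 224 CPM in control pools to 309.8, 286, 292 and 299 CPM in CRISPant pools. Its groups did not overlap, and its log2 fold change was 0.41 (edgeR adjusted p = 1.3e-06).

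**Figure D2:**
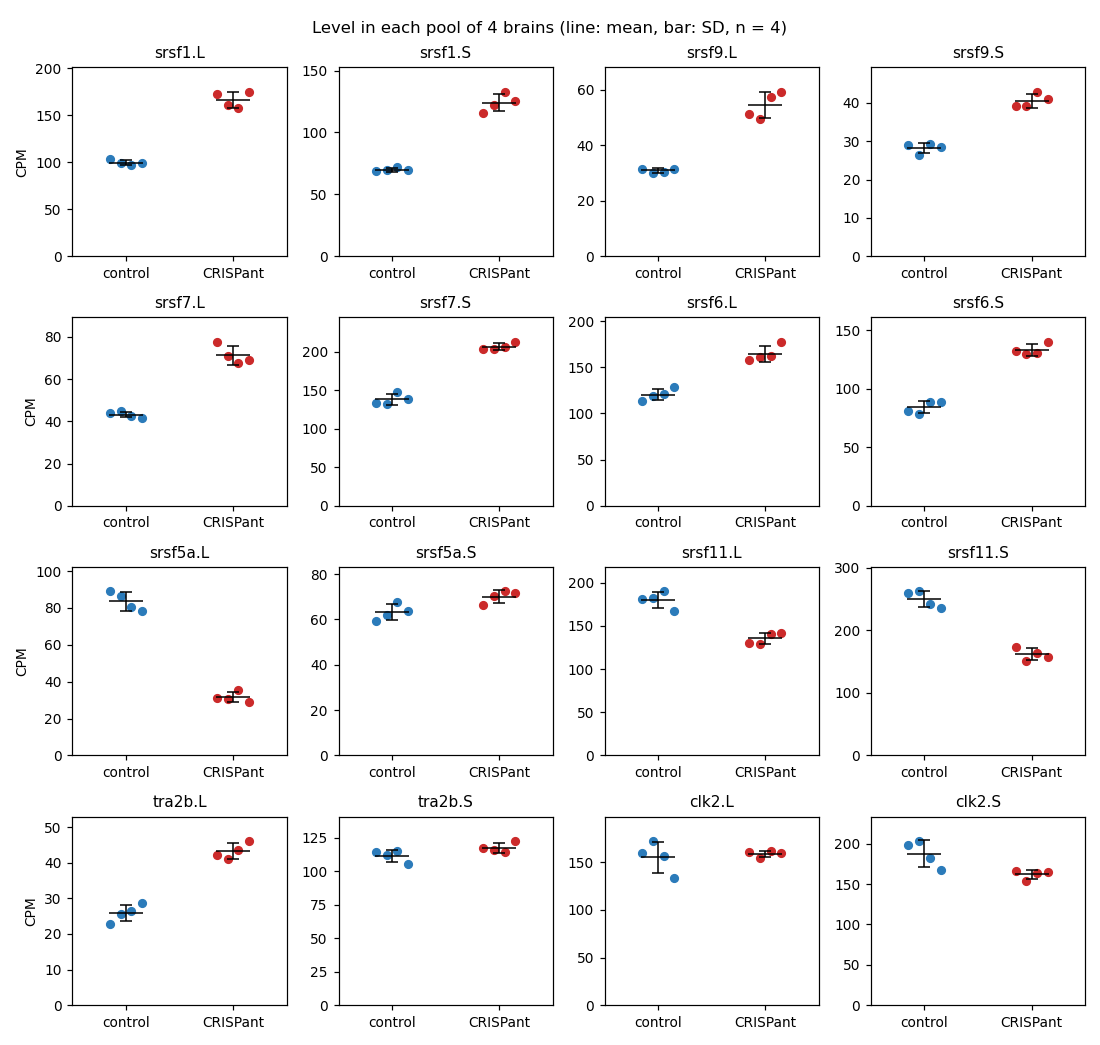
CPM of 16 members in each pool (y axis, from 0), with control pools in blue and CRISPant pools in red, the line marking the mean and the bar the SD (n = 4 pools each). The groups are apart for srsf1, srsf9, srsf7, srsf6 and srsf11 in both homeologues, while srsf5a and tra2b differ between groups mainly in the L copy.

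The srsf5 homeologues rose by similar, modest amounts. Control pools of srsf5.L ran from 417 to 484 CPM and CRISPant pools from 577 to 612 CPM (log2 fold change 0.38, edgeR adjusted p = 8.9e-06). For srsf5.S the ranges were 499 to 563 CPM and 683 to 707 CPM (log2 fold change 0.36, adjusted p = 1.0e-05). Control pool 5 was the lowest control for both.

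srsf2 encodes an SR protein that stays in the nucleus in mammals, and its homeologues parted. srsf2.L was at 237, 223, 214 and 212 CPM in control pools and at 259.9, 241, 258 and 268 CPM in CRISPant pools, a rise of 0.21 on the log2 scale (edgeR adjusted p = 0.0031). srsf2.S, the copy with more counts, was at 470.2, 461, 432 and 426 CPM and at 421, 405, 417 and 426 CPM. It had a log2 fold change of -0.10 and did not pass (adjusted p = 0.12). With both copies summed before the fit, the log2 fold change of srsf2 was 0.01 (edgeR adjusted p = 0.89).

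The largest change of any member was the fall of srsf5a.L, on chromosome 8L from 101776761 to 101791924. Its level was 88.9, 86.3, 80.4 and 78.4 CPM in control pools and 31.4, 30.6, 35.6 and 29.1 CPM in CRISPant pools, so every CRISPant pool was far below the lowest control pool. The mean went from 83.5 ± 4.93 to 31.7 ± 2.80 CPM (SD over 4 pools). It was 2.64-fold lower, with a log2 fold change of -1.40 ± 0.07 (SE, edgeR adjusted p = 3.0e-12). By p, srsf5a.L ranked 10 among all genes with a negative change. srsf5a.S, on chromosome 8S from 2824045 to 2844616, went the other way, from 59.2, 61.8, 67.6 and 63.9 CPM to 66.2, 70.2, 72.3 and 71.6 CPM. This small rise of 0.15 on the log2 scale passed (edgeR adjusted p = 0.037), with overlap between the groups, and was lost when control pool 1, 2 or 5 or CRISPant pool 4, 7 or 9 was left out (adjusted p up to 0.13).

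The row srsf5a was placed with the classical SR proteins by its name alone. RefSeq's entry for srsf5a.L lists keratin symbols among its synonyms, and its protein sequence was not used here. It is not the neighbour of srsf5, since the genes lie 2063461 bp apart on 8L and 988386 bp apart on 8S. Of 15 tested genes within 300000 bp of srsf5a.L, 7 rose and 4 fell, with log2 fold changes between -0.60 and 0.59. Of 14 around srsf5a.S, 5 rose and 2 fell. The threshold was passed by 42.4% of genes in the whole set, 21.7% upwards and 20.8% downwards. Whether changed genes gather around srsf5a was not tested.

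The atypical members srsf10, srsf11 and srsf12 all passed the test, in both directions, against 42.4% of all genes. srsf10, which represses splicing in its dephosphorylated form in mammals, rose in both copies. srsf10.L went from 10.3, 8.86, 10.3 and 9.21 CPM to 14.97, 15.8, 12.7 and 12.6 CPM (log2 fold change 0.54, edgeR adjusted p = 2.4e-04). srsf10.S went from 54.6, 50.7, 50.3 and 54.2 CPM to 65.7, 67.6, 73.3 and 75.1 CPM (log2 fold change 0.43, adjusted p = 8.1e-06). CRISPant pools 3 and 4 were the higher ones for the L copy and the lower ones for the S copy. srsf12.L, which opposes SR proteins in human cells, rose from 18.4, 18.3, 18.0 and 18.8 CPM to 28.3, 24.7, 21.7 and 24.9 CPM, a log2 fold change of 0.44 (edgeR adjusted p = 2.1e-04).

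srsf11, whose mouse counterpart takes part in the inclusion of neuronal microexons, was the one SR gene that fell in both homeologues. srsf11.S was at 260.3, 262, 242 and 237 CPM in control pools and at 174, 151, 165 and 158 CPM in CRISPant pools. Its change was a fall, with a log2 fold change of -0.63 ± 0.06 (SE, edgeR adjusted p = 2.5e-08). srsf11.L was at 181, 182, 189.7 and 167 CPM in control pools and at 131, 129, 141 and 141 CPM in CRISPant pools, with a log2 fold change of -0.41 (adjusted p = 4.5e-06). In both copies the groups were fully separated. Markers of neurons gave 5 of 11 rows lower and 1 higher, with a median log2 fold change of -0.11. Their sums overlapped between the groups, at 3013 to 3158 CPM in control pools and 2884 to 3258 CPM in CRISPant pools. Markers of glutamatergic neurons gave 2 of 4 lower and 0 higher (median -0.08). Those of GABAergic neurons gave 1 of 2 lower and 0 higher (median -0.06). Those of myelinating glia gave 4 of 10 lower and 0 higher (median -0.24). Those of microglia and macrophages, at most 5.78 CPM in sum, gave 2 of 4 lower and 0 higher (median -0.65). Over all genes 20.8% fell and 21.7% rose, and the part of these cells in the fall of srsf11 was not tested.

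The TRA2 proteins activate exons alongside SR proteins and were named after Transformer-2 of Drosophila. Both L copies passed the test and neither S copy did, where 42.4% of all genes passed. The ratio of the copies differed between the groups for tra2b but did not pass for tra2a (limma adjusted p = 0.11). tra2b.L was at 22.9, 25.5, 26.5 and 28.6 CPM in control pools and at 42.1, 41.0, 43.7 and 46.1 CPM in CRISPant pools, a log2 fold change of 0.74 ± 0.07 (SE, edgeR adjusted p = 8.3e-08). tra2b.S, which holds most counts of the pair, was at 114, 112, 115 and 105 CPM and at 117, 116, 115 and 123 CPM, and did not pass (log2 fold change 0.07, adjusted p = 0.27). tra2a.L went from 94.6, 87.4, 83.8 and 84.7 CPM to 104, 99.0, 101 and 111 CPM (log2 fold change 0.24, edgeR adjusted p = 0.0015). tra2a.S had a log2 fold change of 0.03 and did not pass (adjusted p = 0.67), with control pools between 123 and 132 CPM and CRISPant pools between 123 and 139.8 CPM. With the copies of each gene summed before the fit, both genes rose, where 43.6% of all genes passed. The log2 fold change was then 0.22 for tra2b (edgeR adjusted p = 6.3e-04) and 0.12 for tra2a (adjusted p = 0.036).

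The kinases moved little. Of 9 rows, 2 rose, 2 fell and 5 did not pass, and log2 fold changes lay between -0.21 and 0.27. Of all genes tested, 21.7% rose, 20.8% fell and 42.4% passed, so the kinases passed at about the rate of all genes. srpk1.S, the cytoplasmic kinase of SR proteins, changed most, from 52.9, 49.3, 51.8 and 54.8 CPM to 63.4, 63.0, 60.8 and 64.7 CPM (log2 fold change 0.27 ± 0.06, SE, with an edgeR adjusted p of 5.1e-04). srpk3.S, a kinase of striated muscle in mammals, for which RefSeq also lists a synonym of the srpk2 kind, was at 146 to 152 CPM in control pools and 145 to 159 CPM in CRISPant pools. It did not pass (log2 fold change -0.01 ± 0.05, SE, edgeR adjusted p = 0.92).

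clk1.L rose from 79.0, 78.8, 89.0 and 82.1 CPM to 100.3, 96.7, 91.5 and 92.8 CPM, a log2 fold change of 0.21 (edgeR adjusted p = 0.0043). clk2.S fell from 199, 203, 182 and 167 CPM to 166, 154, 163 and 165 CPM, a log2 fold change of -0.21 (adjusted p = 0.0067). The gap between the groups of clk2.S was narrow, with control pool 5 just above the CRISPant pools. The annotated span of clk2.S overlaps another gene, as do those of acin1.L, srrm1.S and both copies of srrm2, and reads in the overlap cannot be told apart without the strand setting. The gene that overlaps clk2.S had too few counts to be tested. thoc6.L, which overlaps srrm2.L, was at 47.6 CPM in controls and 56.6 CPM in CRISPants and rose (edgeR adjusted p = 0.0058). clk2.L was at 159.7, 172, 156 and 133 CPM and at 161, 155, 161 and 160.3 CPM and did not pass (log2 fold change 0.03, adjusted p = 0.69). The clk3 homeologues had log2 fold changes of 0.04 and 0.19 and did not pass, with standard errors of 0.11 and 0.12, the widest of the members. dyrk1a, a dosage-sensitive kinase of brain growth in mammals that also phosphorylates splicing factors, fell in the S copy from 34.8, 36.0, 34.8 and 34.3 CPM to 31.1, 33.5, 30.7 and 27.8 CPM (log2 fold change -0.18, edgeR adjusted p = 0.033). With control pool 1, 2 or 4 or CRISPant pool 3, 7 or 9 left out it no longer passed (adjusted p up to 0.12). dyrk1a.L had a log2 fold change of -0.14 and did not pass (adjusted p = 0.13), and the change of the ratio of its copies did not pass either (limma adjusted p = 0.79). With both copies summed before the fit, dyrk1a fell, with a log2 fold change of -0.17 (edgeR adjusted p = 0.016). The row dyrk1a.2.L, which is not a member by its symbol, had a log2 fold change of 0.085 and did not pass (edgeR adjusted p = 0.34).

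SR-related proteins that bridge splicing factors or build nuclear speckles mostly did not pass the test. Of 11 rows for srrm1, srrm2, son, pnn, acin1 and rnps1, 2 rose and 9 did not pass, and log2 fold changes lay between -0.12 and 0.24. Over all genes, 21.7% rose, 20.8% fell and 14494 of 25171 did not pass. son.S, a large scaffold of speckles, was at 621, 628, 583 and 584 CPM in control pools and at 772, 772, 677 and 624 CPM in CRISPant pools. The groups overlapped, with CRISPant pools 3 and 4 well above the other two pools of their group, and the log2 fold change was 0.24 (edgeR adjusted p = 0.0050). rnps1.S, a partner of the exon junction complex, went from 60.7, 60.8, 57.8 and 62.0 CPM to 72.8, 62.4, 69.5 and 69.8 CPM (log2 fold change 0.18, adjusted p = 0.014). This call was lost without CRISPant pool 3 (adjusted p = 0.058).

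The remaining rows of this group did not pass. The speckle scaffold srrm2 had log2 fold changes of -0.06 for the L copy and -0.12 for the S copy, and srrm2.S passed only when CRISPant pool 7 was left out (edgeR adjusted p = 0.029). The coactivator srrm1 had -0.05 and 0.04, pinin (pnn) had -0.10 and -0.07, and acinus (acin1) had 0.04 and 0.09 for L and S. Their standard errors were between 0.05 and 0.07, against log2 fold changes of 0.74 and 0.83 for srsf1. rnps1.L had a log2 fold change of 0.08 (edgeR adjusted p = 0.40). The srrm3 rows, which are not members by their symbol, both fell, where 20.8% of all genes fell. Their log2 fold changes were -0.60 for srrm3.L (edgeR adjusted p = 1.2e-06) and -0.68 for srrm3.S (adjusted p = 2.4e-07).

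**Figure D3:**
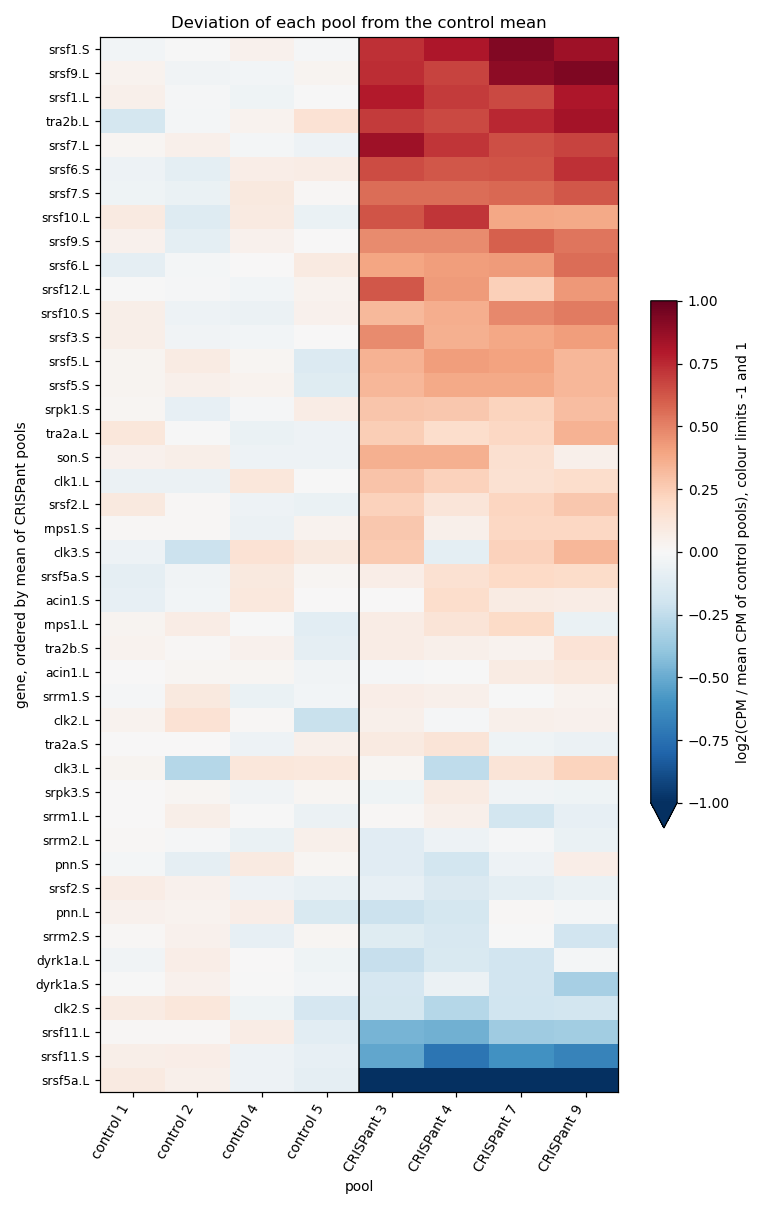
Log2 ratio of the CPM of each pool to the mean of the control pools, for the 44 members (rows, ordered by the mean of the CRISPant pools) in 8 pools (columns). Red is above and blue below the control mean, colours stop at -1 and 1, and the srsf5a.L row lies below that limit in the CRISPant pools.

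CRISPant pool 9 was the highest of its group for more members than any other CRISPant pool. Among control pools, the number of members for which a pool was the highest ran from 8 for control pool 5 to 14 for control pool 2. Among CRISPant pools it ran from 7 for CRISPant pool 4 to 18 for CRISPant pool 9. Control pool 5 and CRISPant pool 4 were each the lowest of their group for 17 members. The order of the pools over all genes was not examined, so whether this order is particular to the members is not known. Member counts made up 0.587% to 0.608% of all counts in control pools and 0.660% to 0.674% in CRISPant pools, and the groups did not overlap. Abundant members weigh most in this share. Mean levels went from 604 to 711 CPM for son.S, from 543 to 695 CPM for srsf5.S and from 458 to 594 CPM for srsf5.L. For srsf2.S, also abundant, the mean went from 447 to 417 CPM.

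Whether the homeologues of a gene changed by the same amount was tested with limma on the difference of log2 CPM between L and S within each pool. The ratio differed between the groups in 6 of 19 member pairs, against 24% of all 7427 pairs. Both copies rose in 6 member pairs (11.9% of all pairs) and both fell in 1 (11% of all pairs). Neither copy passed in 5 (37.2%), one alone passed in 6 (37.4%), and in 1 the copies went in opposite directions (2.52%). Multi-mapping settings of the counting are not given in the sources used here, so how reads shared by near-identical copies were divided is not known.

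srsf5a gave the largest difference. The L copy held 60.03%, 58.3%, 54.3% and 55.1% of the counts of the pair in control pools and 32.2%, 30.4%, 33.0% and 28.9% in CRISPant pools, so the copy with more counts changed from L to S. The log2 ratio of L to S fell by 1.55 (standard error 0.10, limma adjusted p = 1.4e-04). For tra2b the share of L was 16.7%, 18.5%, 18.7% and 21.4% in control pools and 26.4%, 26.2%, 27.6% and 27.3% in CRISPant pools. Its log2 ratio rose by 0.67 (adjusted p = 0.0023).

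In srsf2 the share of L was tightly held within groups, at 33.5%, 32.6%, 33.2% and 33.2% in control pools and 38.1%, 37.4%, 38.2% and 38.6% in CRISPant pools (log2 ratio higher by 0.31, limma adjusted p = 0.0049). clk2 moved towards equal shares, with L at 45.3% ± 0.917 in control pools and 49.5% ± 0.396 in CRISPant pools (SD, n = 4 pools each, adjusted p = 0.014). L gained in srsf9, from 52.3% ± 0.961 to 57.2% ± 1.41 (limma adjusted p = 0.015). It lost in srsf6, from 58.8% ± 1.07 to 55.3% ± 0.624 (adjusted p = 0.034), a call that held only when control pool 4 was the pool left out, with adjusted p from 0.040 to 0.083 over the 8 pools left out. The other 5 pairs passed with any single pool left out, and srsf11 passed only without CRISPant pool 3 (adjusted p = 0.039, and 0.071 with all pools). By contrast the srsf5 pair held 45.7% ± 0.324 and 46.1% ± 0.284 of its counts in L, a log2 change in ratio of 0.02 (standard error 0.05, adjusted p = 0.81).

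**Figure D4:**
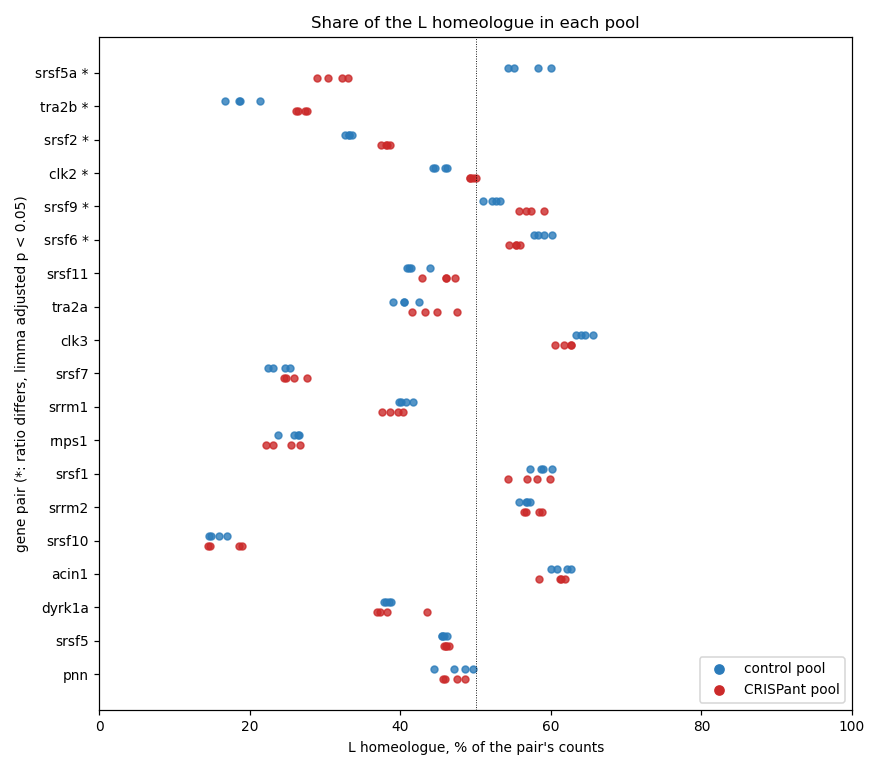
Share of the L homeologue in the counts of each of 19 pairs (x axis, %), with 4 control pools in blue and 4 CRISPant pools in red, ordered by p. In srsf5a the control pools lie between 54.3% and 60.03% and the CRISPant pools between 28.9% and 33.0%, and stars mark the 6 pairs that passed limma.

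Other genes of the pathway were described from lists of general knowledge. In the exon junction complex and its partners, which mark spliced exon boundaries, 8 of 15 rows rose and 7 missed the threshold (median log2 fold change 0.23). magoh.S, a core subunit, had 0.54, magoh.L 0.38 and the export adaptor alyref.L 0.39. Nonsense-mediated decay genes were evenly split, with 4 rows higher and 4 lower of 19 and a median of -0.00069. Over all genes 21.7% rose and 20.8% fell, so the decay genes passed at about the rate of all genes. Among the decay genes upf3a.L fell with -0.58, while the kinase smg1.S rose with 0.44 and nbas.L with 0.34.

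Among 62 rows for other SR-related proteins, 20 rose and 13 fell, and the median log2 fold change was 0.01. zranb2.L rose with 0.77 and sugp1.L with 0.62, while rbm23.L fell with -0.63. Other kinases, phosphatases and importins of SR proteins gave 10 rows higher and 1 lower of 32, with a median of 0.07. The one that fell, ppp1r10.L, which targets a phosphatase to the nucleus, had -0.64, and the phosphatase subunits ppp2ca.S and ppp1cc.L rose with 0.38 and 0.30. Of 18 rows for PTB, RBM and KH-domain RNA-binding proteins, several of which repress exons, 8 rose and 5 fell, with a median of 0.18. fubp1.S, of the KH-domain proteins, rose with 0.70 and rbmx.S with 0.39, and ptbp3.L fell with -0.52. The shares of all genes to set beside these counts are 21.7% higher and 20.8% lower.

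**Figure D5:**
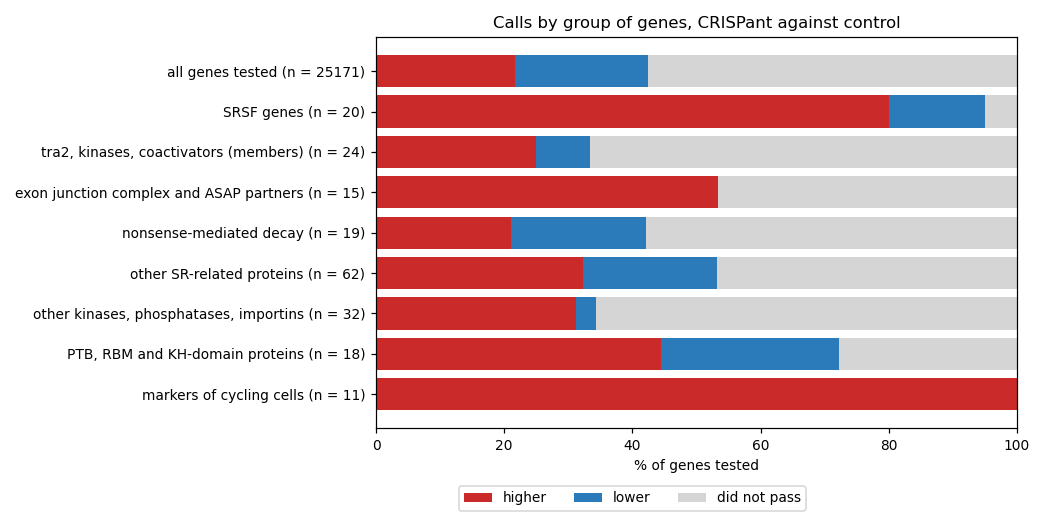
Share of tested genes that rose, fell or did not pass (x axis, %) for all 25171 genes, the SRSF genes, the other members, the 5 lists of other genes and the markers of cycling cells. Of the SRSF genes 16 of 20 rose, against 6 of the other 24 members and 21.7% of all genes.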

How the data were processed

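Libraries were made with a stranded mRNA kit, per the labels. Per the paper's methods, the authors aligned single reads to the XENLA_10.1 build (DRAGEN) and summarised them by gene (FeatureCounts). The deposited values are whole-number counts with no normalisation. Strand and multi-mapping settings are not given in the sources used here. Pools of one group varied beyond sampling noise.

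filterByExpr (minimum count 10) set which genes were tested. edgeR 4.0.16 (R 4.3.3) was run with TMM factors, robust quasi-likelihood F-tests and a term for condition. Standard errors are the absolute log2 fold change over the root of F. limma 3.58.1 was applied to the log2 CPM difference of L and S (prior count 2). Alternatives were other size factors, DESeq2 1.42.0, other filters, non-robust edgeR, a likelihood ratio test, glmTreat at 1.5-fold, summed homeologues and each pool left out. Both tests were first tried on simulated counts in which far fewer genes changed than passed here, so the trial does not cover that setting. Coordinates are from RefSeq's v10.1 annotation, in which all 44 members matched by symbol.

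The members and lists were chosen with earlier results of these data known. Given in full are the 12 members with the smallest p, the 4 with the largest changes in each direction, pairs with a changed ratio and, of each list, the 3 genes with the smallest p. Other members were added after their values were seen. Sequences were not used here.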

Additional observations from a re-analysis of the deposited data

Results flagged for a closer look

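In 4 of 92 groups of 4 pools, counting the 44 members and both neurod2 genes in each condition, 1 pool stood further from the rest than Dixon's 95% critical gap for 4 values. Chance flags about 1 in 20 groups. srsf5.S in control pool 5 was at 499 CPM, under the other controls, which began at 553 CPM. pnn.L was at 61.3 CPM in the same pool, against 69.9 CPM for the next control. clk2.L was at 154.5 CPM in CRISPant pool 4, under the next CRISPant pool at 160.3 CPM. srpk3.S was at 159 CPM in CRISPant pool 4, above the next one at 146 CPM.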

How the results depend on the processing

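With other size factors, DESeq2, either other filter, edgeR without its robust option or the likelihood ratio test, 22 members were higher and 5 lower, as reported, and each member kept its call in these 6 fits. With homeologues summed, 25 member genes were tested and 14 were higher and 3 lower, against 3954 and 3823 of all 17826 genes (43.6% together). The sign of 4 copies then turned (clk2.L, srrm1.L, srsf2.S and srsf5a.S), since the sum had a log2 fold change of -0.10 for clk2, 0.0015 for srrm1, 0.0097 for srsf2 and -0.53 for srsf5a. Tested with glmTreat against 1.5-fold, 3 members were higher (srsf1.L, srsf1.S and srsf9.L) and 1 lower (srsf5a.L). In that test 511 of all 25171 genes were higher and 289 lower (3.18% together). With 1 pool left out, 21 to 22 members were higher and 4 to 5 lower, 20 of the 22 and 4 of the 5 kept their call each time, and 5 to 6 pairs had a changed ratio. Of all genes tested, 37.2% to 41.3% passed in these fits. clk2.L ran from -0.034 to 0.085. Pair counts were 6 under the other prior count, the other filter and limma with trend. No paired analysis was run, since neither the sample titles nor the paper name pairs of pools. clk3.S, srsf10.L and clk3.L had the lowest CPM of the members and the widest standard errors, and the part of depth in this was not tested.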
